A study of Homo sapiens with 3 samples.

Results

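ChIP-seq peaks of the PRCC-TFE3 fusion protein were examined at 8 genes that are known targets of the transcription factor NRF2, namely *HMOX1*, *NQO1*, *GCLM*, *GCLC*, *TXNRD1*, *SLC7A11*, *SRXN1* and *FTL*. A peak was assigned to a gene when it lay inside the gene or within 10 kb of it, on hg19 coordinates. By this rule, the 8 genes held 48 of 109205 narrowPeak peaks in replicate 1 and 43 of 81300 in replicate 2. Where peaks of both replicates overlapped by at least 1 bp they were merged into a shared region, and 34 of 70426 shared regions lay at these genes. All 8 genes had a shared region at the transcription start site, with summits at most 183 bp from it. In addition, *HMOX1* had strong peaks upstream of its start, and *TXNRD1* had 7 further shared regions within the gene.

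NRF2 is the master regulator of the antioxidant response. It is held in the cytoplasm and degraded through KEAP1, and under oxidative or electrophilic stress it accumulates, pairs with small MAF proteins and binds antioxidant response elements (AREs). Its targets supply glutathione, thioredoxin reduction, quinone detoxification, and haem and iron handling. In the kidney, the pathway is known to be active in some renal carcinomas, through mutation of *KEAP1* or *NFE2L2* or loss of fumarate hydratase. TFE3 belongs to another family of factors, the MiT/TFE proteins, which bind E-box motifs and are known for lysosomal and autophagy genes. NRF2 itself was not measured in these data.

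The cells were HK-2, an established human renal proximal tubule line, in which a doxycycline-inducible transgene supplied HA-tagged PRCC-TFE3. All samples carried the transgene and received 0.2 µg/mL doxycycline for 24 h, and they comprised 2 ChIP libraries precipitated through the HA tag, here called replicate 1 and replicate 2, and 1 input DNA library. Library totals recovered from the peak lists were 12235754 tags, 7418533 tags and 21694931 tags, respectively. The paper calls the ChIP libraries biological replicates, and whether the line was 1 clone is not given in the sources used here. Cells without doxycycline are not part of the data used here. Input DNA therefore served as the sole background, and markers of the cell type could not be checked from the peaks of a transcription factor. Each ChIP library gave 1 value per site, so 2 values are printed in place of a mean and SD.

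First, the start sites of the genes were compared. Each of the 8 genes had a shared region that reached within 1 kb of its start, whereas 5.04% of all 2001-bp tiles of the genome held a shared region. The tiles include intergenic sequence, and the share among promoters of other genes was not determined, so nothing particular to these genes is read from the difference. The count of 8 held in either replicate alone, in the BED lists, and with a window of 500 bp. Summits lay on both sides of the starts, and the replicate summits were 4 to 60 bp apart. By the larger distance of both replicates, the closest were those of *HMOX1*, which encodes haem oxygenase 1, at 5 bp and 9 bp upstream of the start. By the same measure the farthest were those of *SLC7A11*, which encodes the cystine importer of the cell, at 162 bp and 183 bp upstream. In replicate 1 alone the *NQO1* summit was farther, at 180 bp, and in replicate 2 alone the *TXNRD1* summit was the closest, at 8 bp.

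Levels at the start sites were then set in order. Tags were counted by the authors in BED windows of one width per list (208 bp and 212 bp). They are given here as normalised tags, per 10000000 tags of the library, so that the genes could be compared without regard to their length. The order by the mean of both replicates was *FTL*, *SLC7A11*, *NQO1*, *GCLM*, *SRXN1*, *GCLC*, *HMOX1* and *TXNRD1*. *FTL*, the light chain of the iron store ferritin, had 40.9 normalised tags in replicate 1 and 55.3 in replicate 2. *TXNRD1*, the cytosolic thioredoxin reductase, had 20.4 and 25.6. These 2 ends of the order did not overlap between replicates. Of the neighbours in the order, only *NQO1* and *GCLM* had replicate ranges apart, at 41.7 and 47.2 against 32.7 and 40.4. All other neighbours overlapped, and the counting intervals of *NQO1* and *GCLM* also overlapped, at 31.0 to 54.8 and 23.4 to 44.5 in replicate 1. A total of 7 genes had more normalised tags in replicate 2 than in replicate 1, and *SLC7A11* was the exception.

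**Figure D1:**
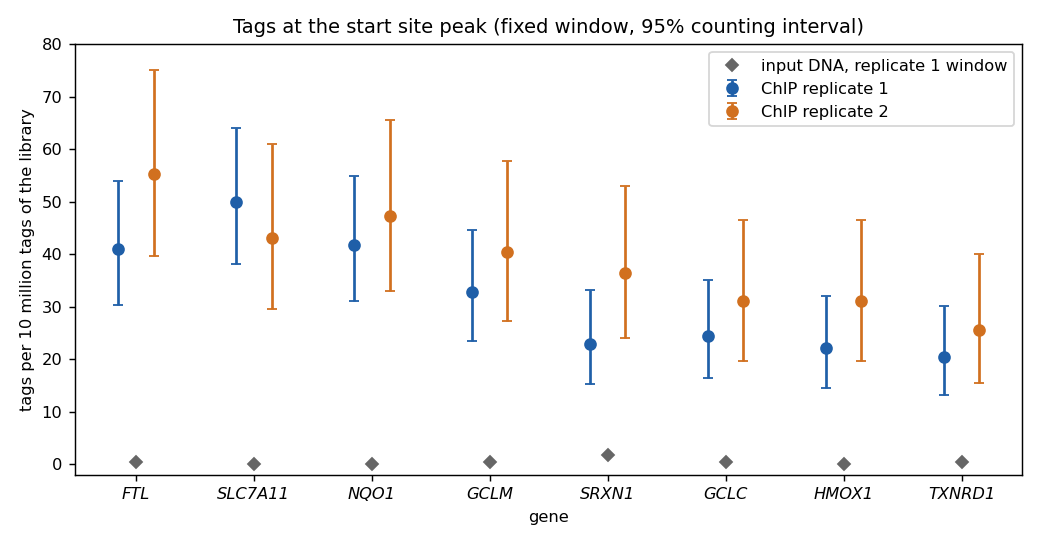
Normalised tags (per 10000000 tags of the library) in the start site peak of each gene, ordered by the mean of both ChIP replicates, with exact 95% Poisson intervals for counting error, and input DNA in the replicate 1 windows. ChIP values range from 20.4 to 55.3, and input DNA holds 0 to 4 tags in any of these windows.

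Input DNA had few tags at these sites, as at listed peaks in general. The BED lists give a fold over scaled input, so few input tags may partly follow from the listing itself. In the 8 start windows of replicate 1, the ChIP library had 312 tags and input DNA had 8, from a library that was deeper. In those of replicate 2, the numbers were 230 and 11. *NQO1*, *SLC7A11* and *HMOX1* had 0 input tags in both windows, which allows up to 3 tags, or 1.38 normalised tags. Over the whole lists, 46.1% of BED peaks in replicate 1 and 46.9% in replicate 2 had 0 input tags, so this is common. *SRXN1*, which encodes sulfiredoxin, had the most, with 4 input tags in either window. None of the 286 input peaks lay at the 8 genes. These loci are a small part of the genome, so nothing is read from this absence. Over all BED peaks at these genes, the mean was 0.75 input tags per peak in replicate 1 and 0.848 in replicate 2, compared with 0.874 and 0.876 over the whole lists.

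The height of the peaks was described by the fold enrichment at the summit in the narrowPeak lists, a ratio over the background estimated by the peak caller. Because enrichment was a condition for a peak to be listed, it is given without a test. At the start sites it ranged from 10.64 to 31.03 in replicate 1 and from 13.38 to 23.46 in replicate 2, above the list medians of 7.49 and 7.32. Taking the lower of both replicates, the median was 16.4 over the 8 start regions, 8.67 over the 26 other shared regions at these genes, and 7.65 over all 70426 shared regions. *FTL* exceeded 97.3% of all shared regions and *NQO1* 96.6%. *SRXN1* stood lowest of the 8, above 71.4% of them. Folds at the start regions of other genes were not determined, so nothing particular to these genes is read from these ranks. For *NQO1*, *GCLM*, *GCLC*, *SLC7A11*, *SRXN1* and *FTL*, the start region was the highest shared region of the gene. This was not so for *HMOX1* and *TXNRD1*.

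**Figure D2:**
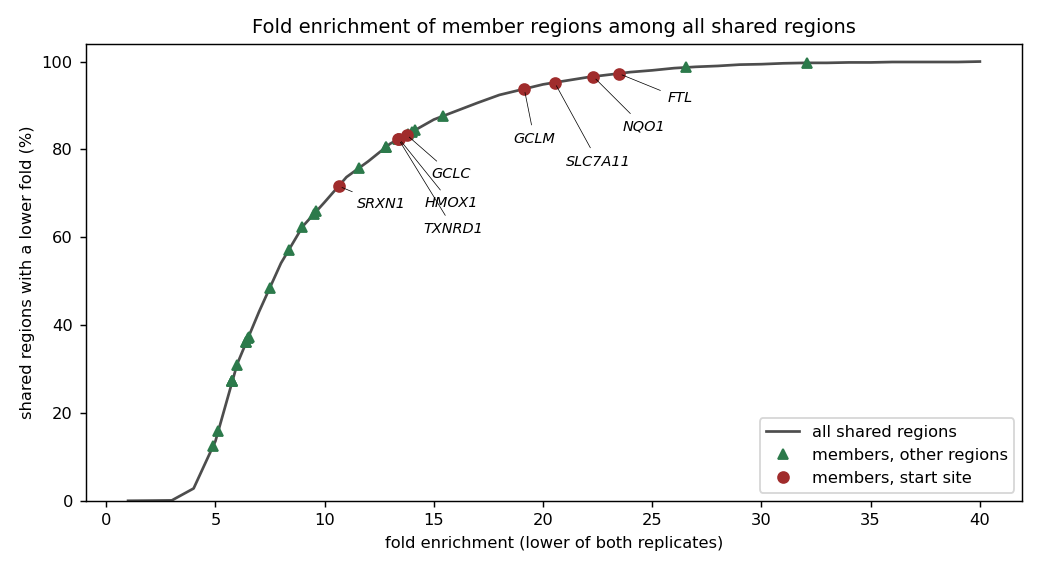
Share of all shared regions with a lower fold enrichment (vertical axis, %) against fold enrichment, as the lower of both replicates (horizontal axis), with the shared regions of the 8 genes placed on the curve. The start regions lie between 71.4% and 97.3%, and the highest member region is an upstream site of *HMOX1* at 32.1.

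To show the sequence at the start sites, promoter windows from RefSeq on GRCh38.p14 were used, each with 250 bases before and 50 bases from the annotated start. The table held windows for 6 of the 8 genes, with 2 starts for *TXNRD1*. *HMOX1* and *SLC7A11* had none. Peaks were on hg19 and were not placed on these windows, and the annotated lengths of *NQO1*, *SRXN1*, *GCLC*, *GCLM* and *TXNRD1* differed between the builds by 24 to 1809 bp, so a window need not start at the same base. Both strands were searched for the ARE core TGACNNNGC, the E-box CACGTG, the same E-box with GT before it and AC after it, the M-box core TCATGTG, and the AP-1 motif TGANTCA. The core of the ARE can overlap an AP-1 motif, and the longer E-box contains the shorter one. Of the 7 windows, 3 held an ARE core, compared with 13.3% of all 35116 windows. These 3 belong to *GCLM* and *TXNRD1* only. The genes were chosen as known NRF2 targets, so nothing about PRCC-TFE3 is read from this comparison. The other motifs had no match in the 7 windows and occurred in 7.26%, 0.353%, 2.92% and 7.71% of all windows. Windows with a match are shown first because their genes differ in peak pattern, with the ARE core in capitals. *GCLM* had 1 match, 34 bp before the start, on the minus strand relative to the gene. The upstream *TXNRD1* start had a match 99 bp and another 8 bp before it, and the downstream start had 1 at 102 bp. *NQO1* and *FTL*, at whose starts the tags were among the highest, are shown in lower case and had no match. *GCLC* and *SRXN1* also had none. A match is a description of letters and not a site of binding, and a missing match says nothing of sequence outside the window. The *NQO1* summits lay 180 bp and 161 bp downstream of the hg19 start, so its window, with 50 bases from the start on, may not hold them.

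GCLM, chr1:93909381-93909680, minus strand: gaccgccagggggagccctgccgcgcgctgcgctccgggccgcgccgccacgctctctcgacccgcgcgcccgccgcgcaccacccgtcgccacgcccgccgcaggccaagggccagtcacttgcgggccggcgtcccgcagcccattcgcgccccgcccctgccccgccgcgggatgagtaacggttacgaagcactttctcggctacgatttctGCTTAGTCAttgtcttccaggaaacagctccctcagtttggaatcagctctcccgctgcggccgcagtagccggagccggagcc
TXNRD1, upstream start, chr12:104215529-104215828, plus strand: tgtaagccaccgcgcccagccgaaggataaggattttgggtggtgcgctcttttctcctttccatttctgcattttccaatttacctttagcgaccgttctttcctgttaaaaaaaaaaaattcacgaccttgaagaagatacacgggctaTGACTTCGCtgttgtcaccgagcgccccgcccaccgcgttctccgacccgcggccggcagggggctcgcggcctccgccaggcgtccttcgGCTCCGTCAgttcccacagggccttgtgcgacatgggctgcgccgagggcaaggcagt
TXNRD1, downstream start, chr12:104286782-104287081, plus strand: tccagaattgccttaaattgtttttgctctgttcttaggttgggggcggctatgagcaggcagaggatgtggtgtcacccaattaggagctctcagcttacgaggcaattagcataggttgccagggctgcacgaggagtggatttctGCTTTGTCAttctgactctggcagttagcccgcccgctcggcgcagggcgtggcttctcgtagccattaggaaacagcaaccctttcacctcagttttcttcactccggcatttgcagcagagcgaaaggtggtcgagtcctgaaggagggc
NQO1, chr16:69726511-69726810, minus strand: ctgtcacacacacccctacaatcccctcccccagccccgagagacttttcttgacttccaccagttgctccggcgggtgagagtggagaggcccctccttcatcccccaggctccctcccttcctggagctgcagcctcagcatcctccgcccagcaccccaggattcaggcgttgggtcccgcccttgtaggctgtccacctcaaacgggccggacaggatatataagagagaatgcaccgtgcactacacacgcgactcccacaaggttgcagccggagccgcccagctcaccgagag
FTL, chr19:48965059-48965358, plus strand: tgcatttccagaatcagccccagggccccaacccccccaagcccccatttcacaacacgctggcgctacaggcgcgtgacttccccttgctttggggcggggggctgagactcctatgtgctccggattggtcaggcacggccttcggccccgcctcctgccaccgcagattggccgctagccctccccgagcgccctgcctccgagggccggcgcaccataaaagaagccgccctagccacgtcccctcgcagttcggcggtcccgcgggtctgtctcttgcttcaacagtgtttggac

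Next, each locus was described, beginning with glutathione synthesis. *GCLC* and *GCLM* encode the catalytic and the modifier subunit of glutamate-cysteine ligase, the rate-limiting enzyme of that pathway. *GCLC* (chr6:53362140-53409927, minus strand) had 5 shared regions in its 67.8-kb locus. Of genome tiles of that length, 52.7% held at least 1, and the mean was 1.58. Tiles include intergenic sequence, so nothing particular to a gene is read from the counts at this or the other loci. Its start region, at chr6:53409745-53410125, had a fold of 13.75 in replicate 1 and 14.15 in replicate 2. There were 30 tags in replicate 1, 23 in replicate 2 and 1 in input DNA. A second region about 3 kb upstream, with summits 2996 bp and 3000 bp before the start, was of similar height, with folds of 13.91 and 11.55. In replicate 1 alone the upstream site was thus the higher one, by less than the difference between the replicates. The region within the gene had folds of 7.49 and 7.70, and 2 regions at its 3′ end, on the side of *ELOVL5*, had folds of 5.78 to 9.63. One of these held 5 input tags, the most of any peak at the 8 genes.

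*GCLM* (chr1:94352590-94375012, minus strand) had 3 shared regions in 42.4 kb, where 42.7% of tiles held at least 1 and the mean was 0.993. The start region at chr1:94374832-94375550 had folds of 19.33 and 19.14, with 40 and 30 tags. The other 2 regions lay in the downstream flank on the side of *DNTTIP2*, about 30 kb from the *GCLM* start. These regions may belong to *DNTTIP2*, since their distance from its start was not determined. Their folds were 8.36 and 11.54 for one and 6.89 and 4.90 for the other. No region within the gene was shared, although replicate 1 alone had weak peaks 1567 bp and 3454 bp downstream of the start, with folds of 6.26 and 4.79. Without replicate 2, the count at *GCLM* was 5.

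*SLC7A11* (chr4:139085248-139163503, minus strand) imports cystine, from which the cell makes cysteine for glutathione. It had 4 shared regions in 98.3 kb, and 60.3% of tiles of that length held at least 1, with a mean of 2.29. The start region at chr4:139163309-139164104 had a fold of 31.03 in replicate 1, the highest of all start sites in that library, and 20.53 in replicate 2. Tags there were 61 and 32, with 0 in input DNA. The other 3 shared regions were far from the start, at 42626 bp, 50050 bp and 83397 bp in replicate 1, and weaker, with folds of 6.95 to 10.70 in replicate 1 and 5.13 to 6.42 in replicate 2. The highest site of *SLC7A11* was thus at its start in both libraries.

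The thioredoxin genes differed from each other. *SRXN1* (chr20:627268-634014, minus strand), whose product restores overoxidised peroxiredoxins, had 2 shared regions in 26.7 kb. Of tiles of that length, 33.4% held at least 1, and the mean was 0.63. The start region at chr20:633790-634414 had folds of 10.64 and 13.85, with 28 and 27 tags. The other region, downstream of the gene, had folds of 6.49 and 6.52. In the BED lists, whose fold is taken over scaled input tags, the start region was no longer the higher of the 2, and the 4 input tags at the start stand beside this.

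*TXNRD1* (chr12:104609557-104744061, plus strand) had 8 shared regions in its 155-kb locus. This was the largest number of the 8 genes, and tiles of that length held 3.59 on average, with 68.7% holding at least 1. At the upstream start, region chr12:104609363-104609684 had folds of 13.91 and 13.38. A pair of sites followed it at 3.7 kb and 4.4 kb, and the second of these was the highest of the locus, with folds of 26.75 and 15.40 and with 52 and 23 tags. After a long stretch without a shared region, 5 more lay between 59970 bp and 73057 bp downstream of the start, with folds of 11.97 to 22.47 in replicate 1 and 8.98 to 14.12 in replicate 2. None of these 5 had an input tag in either window. Of all BED peaks, 46.1% in replicate 1 and 46.9% in replicate 2 had none. The broadest of the 5 regions was chr12:104679783-104681296, 1514 bp wide, with summits 71173 bp and 71119 bp downstream of the start. In the RefSeq windows on GRCh38.p14, the downstream start of *TXNRD1*, shown above, lies 71253 bp from the upstream start. No shared region was found beyond this cluster in the remaining part of the gene or its flank. In 7 of the 8 *TXNRD1* regions the fold was lower in replicate 2 by at least 1, and the start region was the exception, at 13.91 and 13.38. Without replicate 1, the peaks of replicate 2 alone numbered 13 at this gene.

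The iron and haem genes had sites outside the gene as well. *HMOX1* (chr22:35777060-35790207, plus strand) had 5 shared regions in 33.1 kb, where 37.6% of tiles held at least 1 and the mean was 0.779. A pair of them lay upstream, at about 4 kb and 9 kb, distances at which enhancers with AREs are known for this gene. The 4-kb site at chr22:35772818-35773270 had folds of 32.10 and 34.65, the highest shared value at any of the 8 genes, and exceeded 99.3% and 99.8% of the peaks in its list. It had 62 tags in replicate 1, 53 in replicate 2 and 1 in input DNA. In comparison, the start region at chr22:35776880-35777296 was lower, at 13.41 and 14.44. The 9-kb site at chr22:35767933-35768300 had folds of 29.42 and 12.83, with 54 and 19 tags, or 44.1 and 25.6 normalised tags. It did not pass the adjusted test of the tag split described below. Its summits were 8969 bp and 8963 bp upstream, so the position was the same within 6 bp. Downstream, a site on the side of *MCM5* was nearly as high as the 4-kb site, with folds of 29.66 and 26.54, and it lies 18946 bp from the *HMOX1* start. Its distance from the *MCM5* start was not determined, so it may belong to *MCM5* and not to *HMOX1*.

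*FTL* (chr19:49468566-49470136, plus strand) is the shortest of the genes, and its 21.6-kb locus had 4 shared regions, where 29.3% of tiles held at least 1 and the mean was 0.51. The start region at chr19:49468271-49468769 had folds of 25.68 and 23.46, with 50 and 41 tags. A pair of regions lay upstream, on the side of *BAX*. One had summits 1321 bp and 1288 bp before the start and folds of 16.43 and 13.38. The other was 1380 bp wide and held 2 sites. At the farther one, the summits were 3864 bp and 3798 bp upstream with folds of 9.50 and 11.79, and there were 25 and 21 tags. The nearer one was a peak of replicate 2 alone, 2812 bp upstream with a fold of 21.75, and replicate 1 had no summit of its own there. The region at the 3′ end of the gene was weak, at 6.42 and 7.22. The count of 4 became 2 when a reciprocal overlap of 50% was required, and replicate 1 alone, without replicate 2, had 8 peaks at the gene.

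*NQO1* (chr16:69743304-69760571, minus strand), a quinone reductase and a standard readout of NRF2 activity, had 3 shared regions in 37.3 kb. Of tiles of that length, 40.0% held at least 1, and the mean was 0.874. At the start, region chr16:69760167-69761043 was broad, with peaks of 836 bp and 826 bp against list medians of 280 bp and 284 bp. Its folds were 26.64 and 22.30, with 51 and 35 tags and no input tag. Unlike at the other 7 genes, both summits lay downstream of the start, by 180 bp and 161 bp. The other 2 regions, at the 3′ end of the gene, had identical folds of 8.56 in replicate 1 and of 5.78 in replicate 2. They held 7 and 8 tags in replicate 2. The fold of 5.78 recurred in replicate 2 at a region of *GCLC* and a region of *SLC7A11*, so nothing is read from the equal values.

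**Figure D3:**
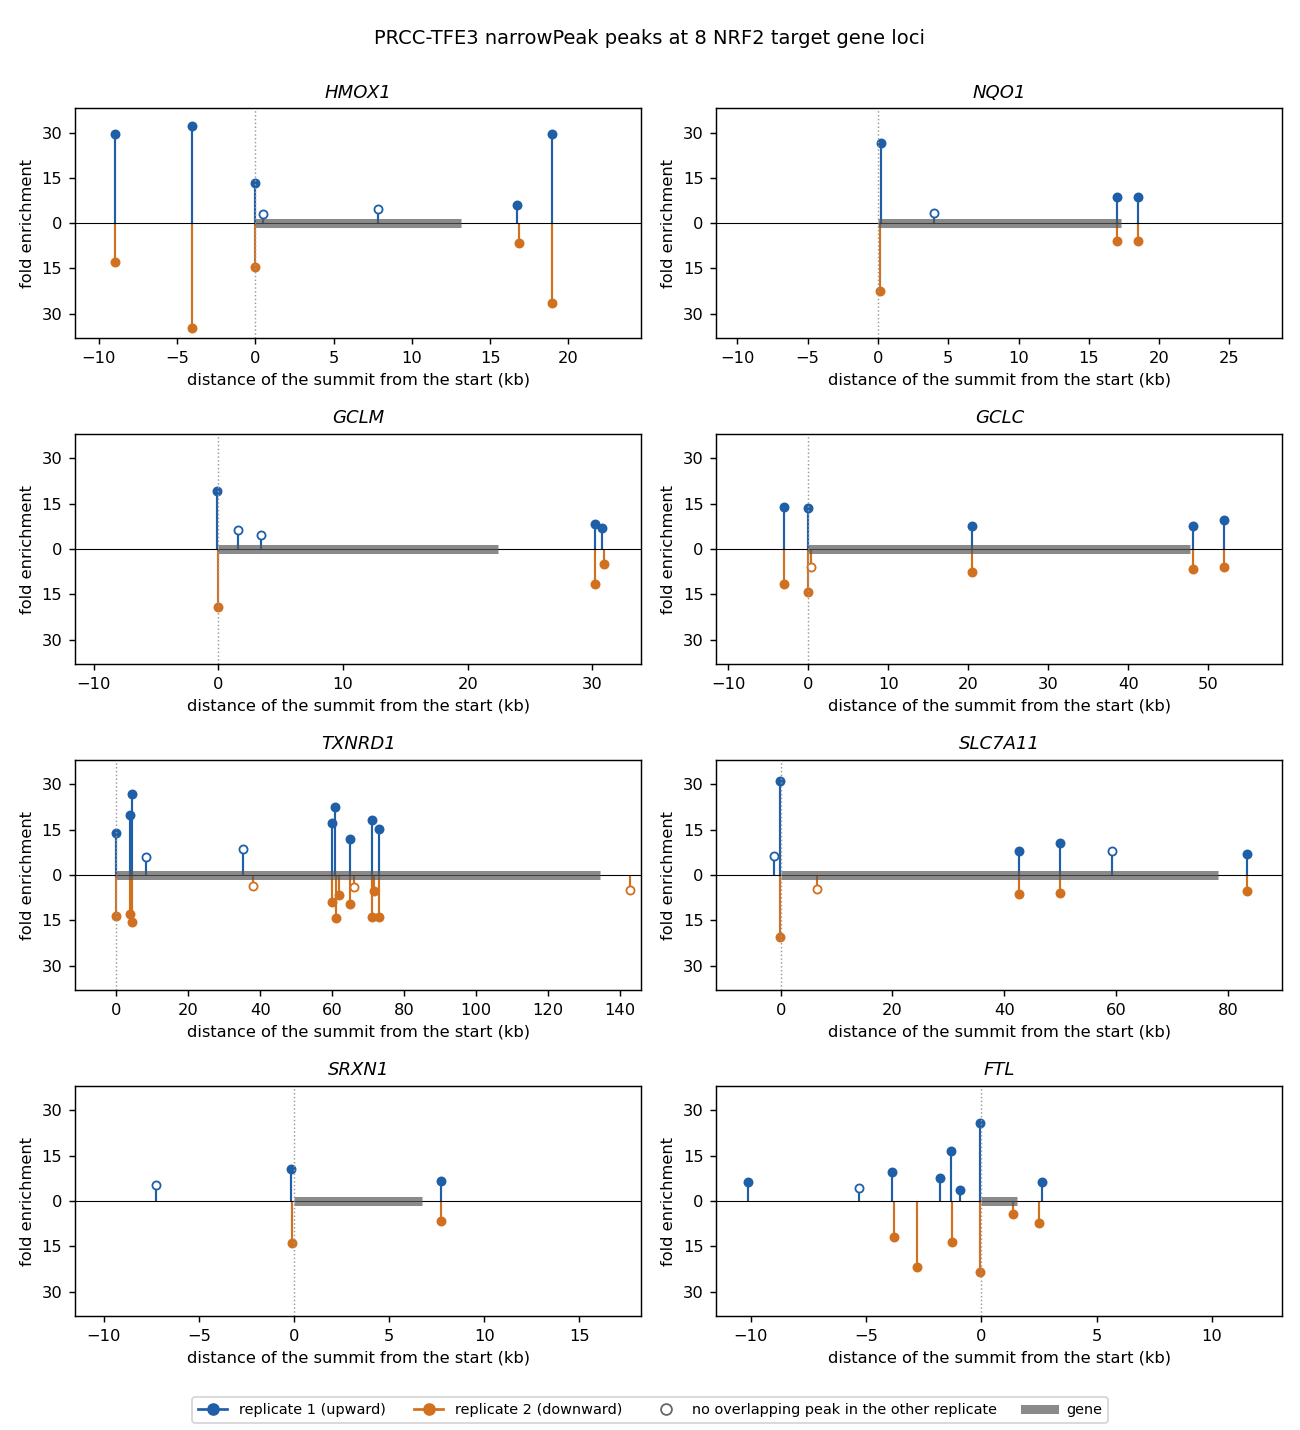
Fold enrichment of every narrowPeak peak within 10 kb of each gene (vertical axis, replicate 1 upward and replicate 2 downward) against the distance of its summit from the start (horizontal axis, kb, positive downstream). Filled points overlap a peak of the other replicate, open points do not, and each gene has filled points of both replicates at its start.

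Finally, the replicates were compared at these genes. Of the 48 replicate 1 peaks, 37 (77.1%; 95% Wilson interval, 63.5% to 86.7%) overlapped a replicate 2 peak, compared with 65.3% over the whole list. Of the 43 replicate 2 peaks, 38 (88.4%; 75.5% to 94.9%) overlapped a replicate 1 peak, compared with 88.5%. Both shares included the value of the whole list in their interval. Peaks without an overlapping peak in the other replicate had folds of 3.04 to 8.53 in replicate 1 and 3.61 to 6.02 in replicate 2, and no start site depended on them. They were below the median of their list except for 2 replicate 1 peaks, which lay 35118 bp downstream of the *TXNRD1* start, with a fold of 8.53, and 59283 bp downstream of the *SLC7A11* start, with a fold of 8.14. Overlap does not mean a matching summit. The replicate 2 peak 2812 bp upstream of *FTL*, with a fold of 21.75, counted as overlapping only through a 1380-bp replicate 1 peak. The summit of that replicate 1 peak lay 3864 bp upstream.

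Between the BED lists, 30 peaks at these genes could be matched one to one. Replicate 2 contributed 39.3% of their tags, against 39.8% over all 55655 matched peaks. In a two-sided exact binomial test of each peak against the latter share, with Benjamini-Hochberg adjustment over all matched peaks, 0 of 30 peaks passed an adjusted p of 0.05, and 0% of all matched peaks did so. Before adjustment, 1 of the 30 (3.33%) was below 0.05, compared with 2.20% of all matched peaks. This was the 9-kb site of *HMOX1*, where replicate 2 contributed 26.0% of the tags (exact binomial p = 0.0165, adjusted p = 1). A p-value that misses the threshold does not show that the libraries were alike at this site. Peaks listed in only 1 replicate, such as the *FTL* site 2812 bp upstream, could not enter the test, so matching left out uneven sites. Peaks also held few tags, with list medians of 17 in replicate 1 and 13 in replicate 2, so the test could resolve only large differences. Summed over its 8 matched peaks, *TXNRD1* had 35.0% of its tags in replicate 2 (95% Wilson interval, 30.7% to 39.6%), the lowest share but that of *SLC7A11*, at 33.8% (26.6% to 41.8%). *SRXN1* had the highest share, at 46.9% (36.4% to 57.7%). These intervals cover counting error only, and the test compares 2 libraries of the same group.

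**Figure D4:**
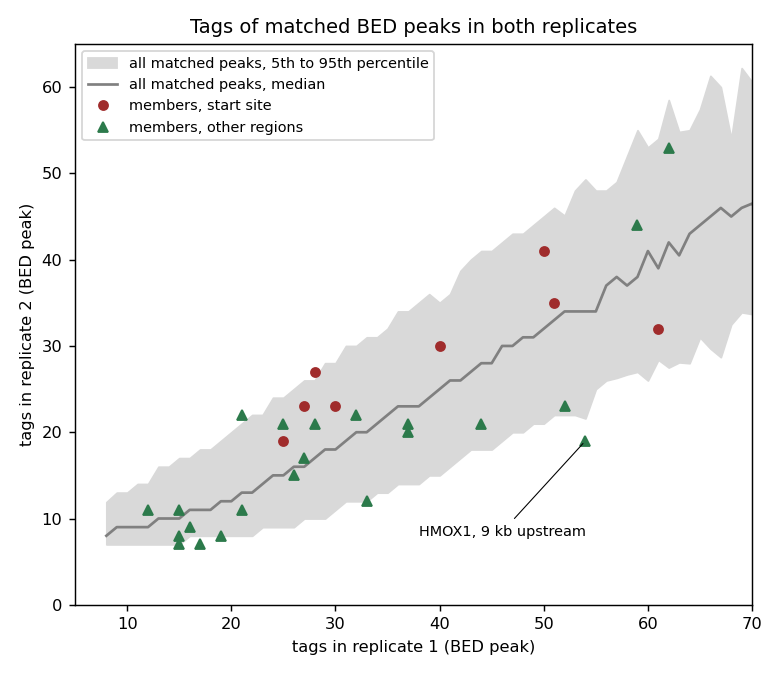
Tags of matched BED peaks in replicate 1 (horizontal axis) and replicate 2 (vertical axis), with the median and the 5th to 95th percentile over all matched peaks. Points are the 30 matched peaks of the 8 genes, of which 2 lie below the band (the 9-kb site of *HMOX1*, with 54 and 19 tags, and a site downstream of *GCLC*, with 17 and 7) and 2 above it (the *SRXN1* start, with 28 and 27, and a site downstream of *GCLM*, with 21 and 22). The other 26 lie inside it. By its definition the band leaves out some of all matched peaks on either side, so nothing is read from the sites outside it.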

How the data were processed

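ChIP-seq was performed on 2 HA-PRCC-TFE3 samples and 1 input DNA sample of HK-2 cells, and groups were taken from the sample titles. The 8 genes, their limits on hg19 and the lists below were chosen with earlier results of these data known. Per the labels, the build was hg19. The aligner and the handling of duplicates are not given in the sources used here.

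The authors called peaks for each sample separately and not on pooled samples. MACS, run in Strand NGS against input DNA, is named in the methods, with a p-value threshold for binding sites that the paper calls stringent. Whether that threshold was applied to the deposited lists is not given. The deposited narrowPeak lists hold a fold ratio at the summit, −log10 p and −log10 q values, and a score of 10 times the −log10 q value. Their lowest −log10 q values were 1.31 and 1.35. The deposited BED lists follow the column order of a HOMER table with displaced names and were read by position. In these deposited lists each peak has counts of ChIP tags, a signal in tags per 10000000, a fold ratio over scaled input, p-values and a score. The tool that made the BED lists is not named in the sources used here.

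Shared regions were formed from narrowPeak peaks that overlapped by at least 1 bp, and counted at a gene when a peak of each replicate overlapped its limits plus 10 kb. All shared regions of a gene were counted. Distances to the starts of neighbouring genes were not determined, so a region in a flank may belong to a neighbour. Those given in full were the region with the highest lower-of-both fold and the one nearest the start. Tiles were consecutive windows of chromosomes 1 to 22 and X. Library totals were recovered from tag counts and scaled signals, and input tags from the tag count and the fold. Of the latter, 100% in replicate 1 and 99.997% in replicate 2 were whole within 0.05 of a tag. The split of tags between replicates was tested per matched BED peak with a two-sided exact binomial test and Benjamini-Hochberg adjustment over all peaks. The script was tested on simulated counts with changes placed only in peaks with many tags. That run does not show what the test can detect at peaks with few tags. Intervals are 95% Wilson or exact Poisson intervals and cover counting error only, since reads without molecular identifiers are not independent molecules. Sequences are RefSeq promoter windows on GRCh38.p14. No coordinates were converted, and sequence under the hg19 peaks and other NRF2 pathway genes, which need an hg19 genome or annotation, were not analysed here. Python 3.11.15, pandas 2.3.3, scipy 1.17.1 and matplotlib 3.10.9 were used.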

Additional observations from a re-analysis of the deposited data

How the results depend on the processing

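The 34 shared regions ranged from 29 to 32 under stricter overlap, q values or the BED lists, and from 43 to 48 as peaks of 1 replicate when the other was left out. They numbered 29 with a flank of 5 kb and 20 without a flank, by construction, since sites beside the gene were left out. Among these overlap and replicate settings, the counts per gene moved furthest, as a ratio, at *FTL* (4 to 2 with reciprocal overlap of 50% and to 8 without replicate 2), *TXNRD1* (8 to 13 without replicate 1) and *GCLM* (3 to 5 without replicate 2). With a flank of 5 kb, *HMOX1* went from 5 to 3 and *GCLM* from 3 to 1, and without a flank *HMOX1*, *GCLM* and *SRXN1* had 1 and *GCLC* and *FTL* had 2. All 8 genes kept a region at the start under every alternative run. Recovery of replicate 1 peaks was 60.4% with reciprocal overlap of 50%. Recovery of replicate 2 peaks was 67.4% with reciprocal overlap of 50%, 72.1% with summits within 100 bp and 97.1% with −log10 q of at least 5. No matched peak passed the test of the tag split with library totals as the expected share or among peaks with at least 20 tags, and 1 of 30 had an unadjusted p below 0.05 in each. The start region was the highest of its gene in 6 genes, in 4 with the BED fold, which dropped *SRXN1* and *FTL*, and in 5 to 6 when a replicate was left out. Without replicate 2, *GCLC* was no longer among them. With 0 to 5 input tags per window, differences in input between sites were within counting error or could not be resolved at this depth. No paired analysis was possible because the ChIP libraries form a single group and input DNA has 1 sample without a number.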

Other observations

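At *FTL*, replicate 2 had a BED peak 2812 bp upstream of the start with 33 tags, or 44.5 normalised tags, and 0 input tags. The BED list of replicate 1 held no peak there, although the narrowPeak list of replicate 1 had a peak 1380 bp wide whose interval covers the position. The number of replicate 1 tags at this position is not given in the lists, and the cause was not tested. At *TXNRD1*, replicate 2 listed a weak peak 142743 bp downstream of the start, in the downstream flank, with a fold of 5.02, and replicate 1 listed none. At *SRXN1*, replicate 1 alone had a peak 7274 bp upstream, with a fold of 5.41 and 13 tags against 3 input tags. These sites were chosen after their values were seen.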
